A study of Homo sapiens with 9 samples.

Results

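Cells cut and remodel the matrix around them with secreted and membrane-bound proteases, and most of these enzymes have dedicated inhibitors that the same cells release. Matrix metalloproteinases (MMPs), ADAM sheddases and ADAMTS proteases use a zinc ion for catalysis, and the first are held in check by the TIMPs and by RECK, a membrane-anchored inhibitor. Urokinase (PLAU) and tissue-type plasminogen activator (PLAT) are serine proteases that turn plasminogen into plasmin, and serpins trap serine proteases in a covalent complex, while cystatins block papain-like cysteine proteases such as the cathepsins. Lung fibroblasts make many of these proteins, and matrix proteases and serpins are often named among the factors that senescent fibroblasts secrete.

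The genes described here are the 62 listed genes, of 6499 in the deposited table, whose symbol belongs to 1 of the following families: MMP, TIMP, ADAM, ADAMTS, serpins of clades A to I, PLAU, PLAUR and PLAT, HTRA, cystatins, A2M, RECK, FAP, DPP4, PAPPA, TFPI, TLL, BMP1, PCSK, FURIN, SPINT, KLK, PRSS and PI16. Membership rested on the symbol alone, and 2 antisense genes with a hyphen in the symbol were left out. RNA came from WI-38, an established line of human diploid fibroblasts from lung, at population doubling 30. The control group (3 libraries) received DMSO, the solvent, and the doxorubicin group (3 libraries) received 1 μM doxorubicin, a topoisomerase II poison that damages DNA, for 12 h, and both were then kept for 48 h in medium with DMSO. A further group of 3 libraries, given oridonin in place of that medium after the same doxorubicin treatment, was not analysed here. All groups are 1 cell line, and nothing in the labels says whether the libraries of a group came from separate cultures, so the p-values measure the spread between these libraries, which may be technical.

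The unit of the values is not named in the table, and they were taken as TPM (transcript abundance scaled by gene length and to the same total in each library), so levels can be compared between genes. Every gene in the table had passed the authors' thresholds on these same libraries (fold change over 1.2 and p under 0.05), and no test given here is independent of that choice. The 50 genes that averaged 1 TPM or more across the 6 libraries were tested with limma on log2(TPM + 1), within a fit over the 5721 listed genes that passed this filter. Log2 fold changes are doxorubicin over control on that scale, with their standard error (SE), and understate the change of low genes. A gene is called here at a Benjamini-Hochberg adjusted p under 0.05 over all genes tested and a fold change over 1.2.

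After doxorubicin, 10 of the 16 inhibitors tested were called higher (62.5%, against 22.7% of all genes tested) and 4 lower (25.0%, against 48.5%). Of the 30 proteases tested, 10 were called higher (33.3%) and 16 lower (53.3%), nearer the shares of all genes tested. Stromelysin-1 (MMP3) had the largest fitted rise of the 50 genes tested, followed by cystatin SN (CST1) and protease nexin-1 (SERPINE2). The largest fitted falls were those of ADAMTS8, PLAU and ADAM10. Of the 50 genes, 22 were called higher and 21 lower, so that 86.0% were called, against 71.2% of all genes tested. The share called higher was 44.0% against 22.7% of all genes tested, and the share called lower was 42.0% against 48.5%. The median log2 fold change of the 50 genes was 0.23, while that of all genes tested was -0.28. The first of these was 0.13 without control replicate 2 and 0.14 without doxorubicin replicate 1 or 2. With no filter on low values, the medians of these genes and of all genes tested were 0.20 and -0.15. With a filter at a mean of 5 TPM they were 0.27 and 0.05, and so lay closer together. The background is itself a list of genes that changed, so these shares describe the genes beside other listed genes only.

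The split between higher and lower calls moved with the scaling of the libraries, more so for the background than for these genes. Under quantile normalization 22 of them were called higher and 16 lower (33.2% and 28.8% of all genes tested, 62.0% in either direction), and under median-ratio scaling 26 were higher and 16 lower (43.8% and 37.5%, 81.3% in either direction). Under these settings the median over all genes tested moved from -0.28 to -0.01 and -0.08, and that of the 50 genes from 0.23 to 0.24 and 0.38. With no filter on low values all 62 genes were tested, and 26 were called higher and 23 lower (23.7% and 45.7% of the 6499 listed genes, 69.5% in either direction). No gene of the 50 changed its sign under either scaling, as the plot of the 3 scalings shows. Both scalings were computed from the listed genes alone, all of which had passed the authors' thresholds for change. They are therefore no independent check of direction.

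**Figure D1:**
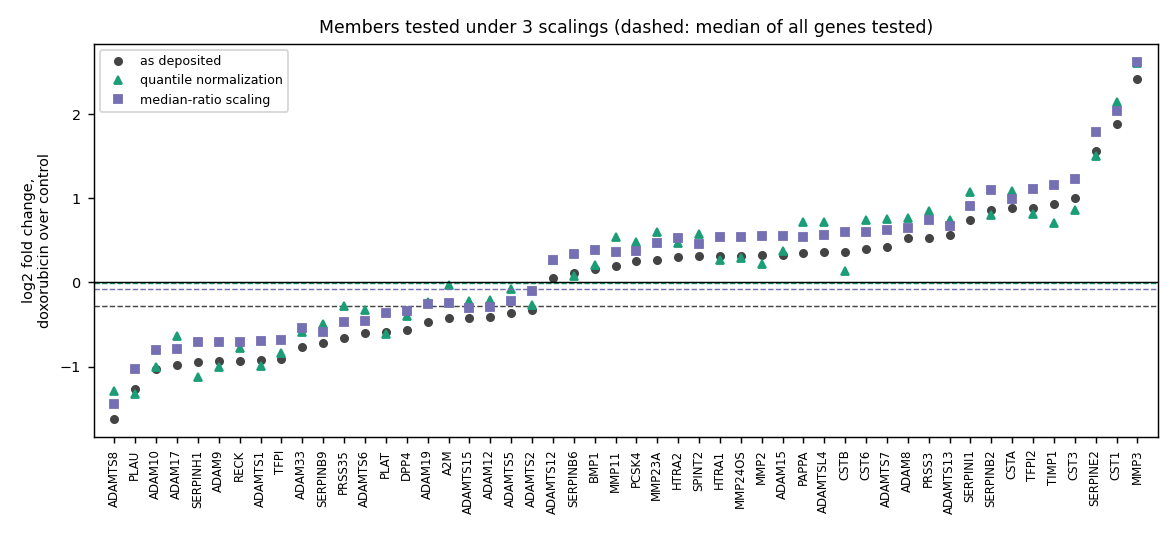
Fitted log2 fold change (vertical axis, doxorubicin over control) of each of the 50 genes tested, ordered by its value on the TPM scale as deposited (circles), under quantile normalization (triangles) and median-ratio scaling (squares), with dashed lines at the median of all genes tested. Every gene stays on its side of 0 under the 3 scalings, while the median of all genes tested moves from -0.28 to -0.01 and -0.08.

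Sorted by what the proteins are known to do, 20 of the 62 genes encode inhibitors, 37 encode proteases or inactive relatives of them, and 5 fit neither role. Of the 16 inhibitor genes tested, 62.5% were called higher and 25.0% lower, against 22.7% and 48.5% of all genes tested, with a median log2 fold change of 0.57. Of the 30 protease genes tested, 33.3% were called higher and 53.3% lower, with a median of -0.34, which lies near the shares and the median (-0.28) of all genes tested. The 4 inhibitors called lower were RECK, TFPI, SERPINB9 and A2M. The roles were assigned with the values known, and the difference between the roles was not tested.

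**Figure D2:**
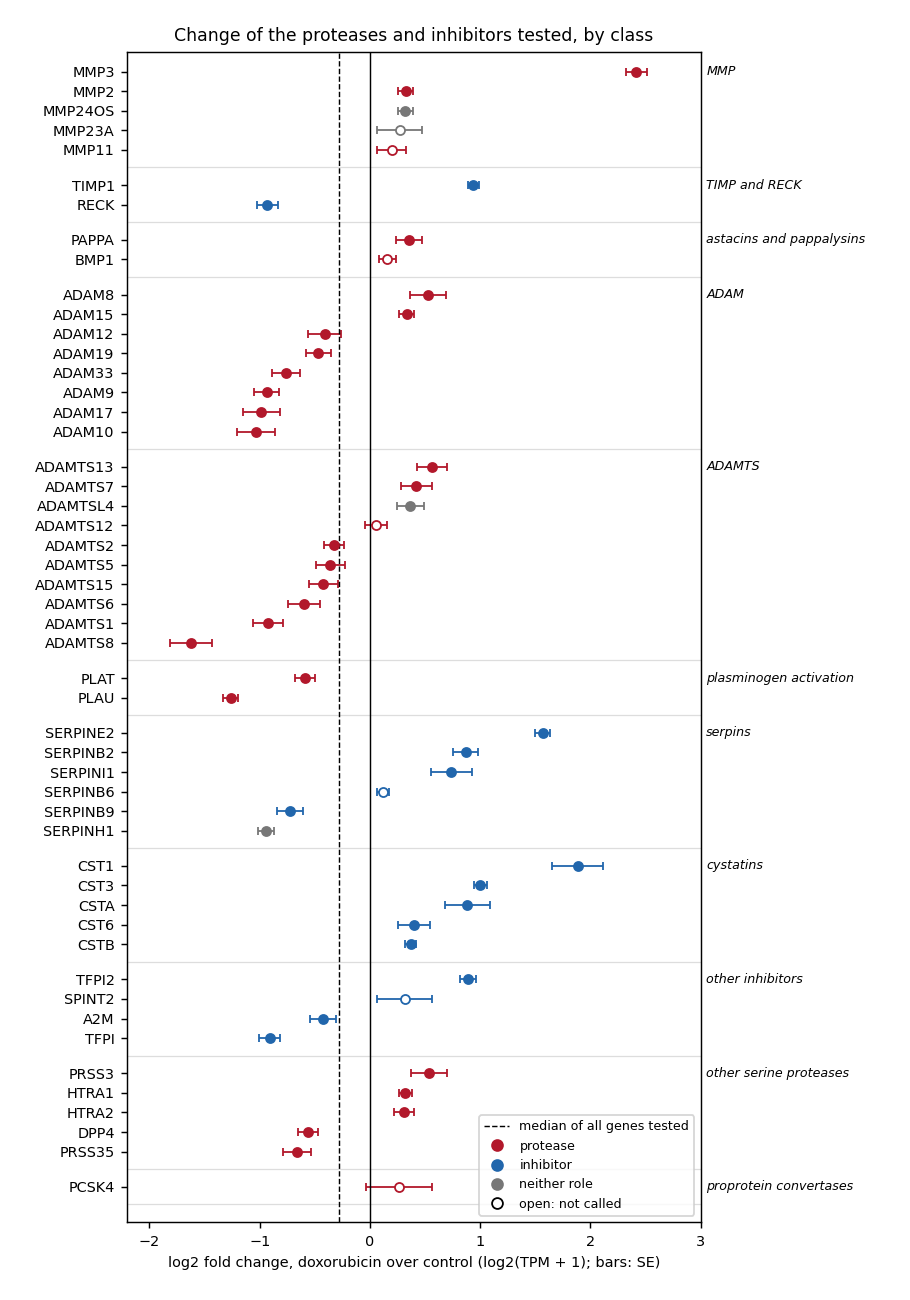
Log2 fold change with its SE (horizontal axis, doxorubicin over control, log2(TPM + 1)) of the 50 genes tested, grouped by class, in red for proteases, blue for inhibitors and grey for genes in neither role, with open circles for the 7 genes not called and a dashed line at the median of all genes tested (-0.28). The 5 cystatins lie to the right of 0, 6 of 8 ADAM genes and both plasminogen activators lie to the left, the MMP class, the astacins and pappalysins and the single proprotein convertase lie to the right with some genes not called, and the other classes are split.

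Levels spanned a wide range, and TIMP1 alone held 43.3% ± 0.697 (SD, n = 3) of the summed TPM of the 62 genes in the control libraries and 58.2% ± 1.75 in the doxorubicin libraries. The summed TPM of the inhibitor genes was 4315, 4252 and 4406 in the control libraries and 7802, 8215 and 7555 in the doxorubicin libraries. That of the protease genes was 1585, 1637 and 1592 in the control libraries and 1267, 1184 and 1404 in the doxorubicin libraries. The groups did not overlap in either sum. The inhibitor sum was thus 2.60 to 2.77 times the protease sum in control libraries and 5.38 to 6.94 times in doxorubicin libraries. Without TIMP1 this ratio was 0.866 ± 0.00929 (SD, n = 3) in control and 1.76 ± 0.189 in doxorubicin libraries. The sums do not pair inhibitors with their targets. The cystatins CST3 (means of 381 TPM in control and 763 TPM in doxorubicin libraries) and CSTB (463 and 598 TPM) block cysteine proteases. No cysteine protease is among the protease genes summed, and CSTB is mainly intracellular. These sums and ratios were formed after the values were seen and are a description. A ratio within a library is the same under any factor by which the whole library is scaled.

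**Figure D3:**
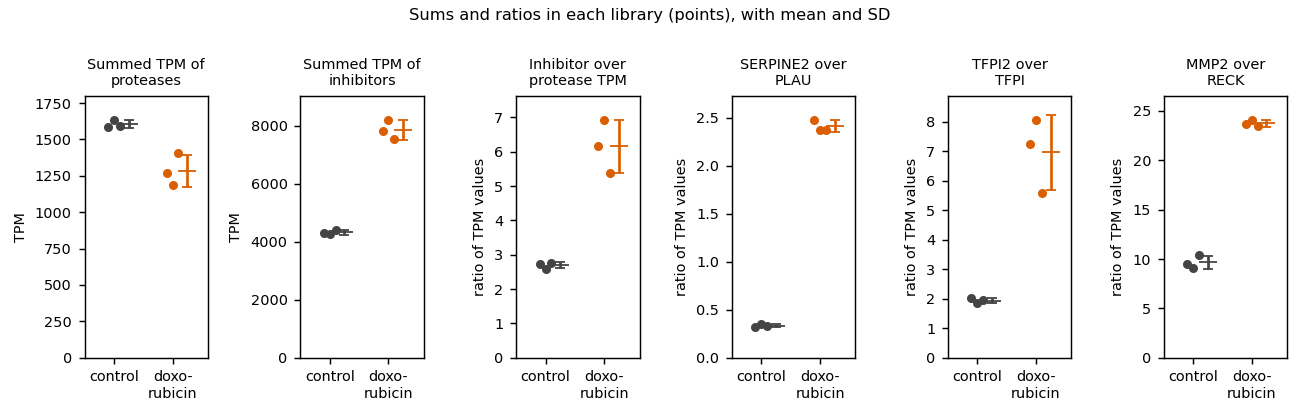
Summed TPM of protease and of inhibitor genes and 4 ratios of TPM values in each library (points), with the mean and SD of each group beside them (n = 3, all axes from 0). In each panel the 3 control and 3 doxorubicin libraries do not overlap, with the inhibitor over protease ratio at 2.60 to 2.77 in control and 5.38 to 6.94 in doxorubicin libraries.

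The MMP genes listed were few. MMP3, which cleaves proteoglycans, fibronectin and other matrix proteins and activates other pro-MMPs, had 7.58, 8.74 and 7.28 TPM in control libraries and 44.4, 46.6 and 47.8 TPM in doxorubicin libraries. Every doxorubicin library was far above every control library, and the means of 7.87 ± 0.771 and 46.3 ± 1.75 TPM (SD, n = 3) differed 5.88-fold (log2 fold change 2.42 ± 0.10 SE, adjusted p = 2.51e-08). By mean TPM the gene moved from rank 3689 to rank 1268 among the 6499 listed genes. Its log2 fold change was 2.37 to 2.49 in the fits that left out 1 library. The gene, ENSG00000149968, lies at chr11:102835801-102843803 on the minus strand (GRCh38).

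Gelatinase A (MMP2), which cleaves denatured collagen and type IV collagen, was the most abundant MMP transcript. It had 318, 316 and 329 TPM in control libraries and 401, 369 and 440 TPM in doxorubicin libraries, without overlap. Its rise was small (log2 fold change 0.32 ± 0.07 SE, adjusted p = 0.00169) and fell below the fold threshold of 1.2 without doxorubicin replicate 3 (log2 fold change 0.26) and under quantile normalization (0.22). MMP3 RNA was thus still well below MMP2 RNA after doxorubicin, at 46.3 against 403 TPM. Stromelysin-3 (MMP11) had means of 2.58 ± 0.342 and 3.10 ± 0.403 TPM, with overlapping groups, and was not called (adjusted p = 0.192), but would be called higher under quantile normalization (log2 fold change 0.54, adjusted p = 0.00738) and median-ratio scaling (0.36, adjusted p = 0.029). Matrilysin-2 (MMP26) was listed at 0 in the 3 control libraries and at 0.340, 0.220 and 0.260 TPM in doxorubicin libraries, and was too low to be tested.

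Of the MMP symbols, 2 do not encode a metalloproteinase. MMP24OS (ENSG00000126005) is a protein-coding gene on the strand opposite MMP24, and its values were 78.6, 74.6 and 69.9 TPM in control and 92.3, 95.6 and 91.1 TPM in doxorubicin libraries (log2 fold change 0.32 ± 0.07 SE, adjusted p = 0.00184). Whether the counting used strand is not given in the sources used here, so reads of MMP24OS and of the genes it overlaps cannot be told apart. The same limit applies to other genes described here that overlap a protein-coding gene on the opposite strand. Among them are TIMP1, TFPI2, PLAU, ADAM17, ADAM19, HTRA2, ADAMTS7 and the low ADAMTS13. MMP23A is annotated as a pseudogene of the near-identical MMP23B, and its reads may be split between the copies. It had means of 6.06 ± 1.08 and 7.69 ± 2.41 TPM and was not called (adjusted p = 0.248), but would be called without doxorubicin replicate 3 (log2 fold change 0.52, adjusted p = 0.010).

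The inhibitors of MMPs moved in opposite directions. TIMP1, a secreted inhibitor of most MMPs, had 2932, 2852 and 3019 TPM in control libraries and 5559, 5923 and 5367 TPM in doxorubicin libraries. It was the most abundant of the 62 transcripts in both groups, and moved from rank 31 to rank 17 among all listed genes (log2 fold change 0.94 ± 0.05 SE, adjusted p = 1.65e-07). RECK, which is anchored in the membrane and inhibits MMP2 and several other metalloproteinases, had 33.4, 34.6 and 31.6 TPM in control and 17.0, 15.3 and 18.8 TPM in doxorubicin libraries. It fell without overlap (log2 fold change -0.93 ± 0.10 SE, adjusted p = 2.70e-05). The ratio of TIMP1 to MMP2 TPM was 9.14 ± 0.0971 (SD, n = 3) in control and 14.0 ± 1.94 in doxorubicin libraries, and that of MMP2 to RECK was 9.68 ± 0.654 and 23.7 ± 0.350. Relative to MMP2, the secreted inhibitor thus increased while the membrane-bound one decreased.

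**Figure D4:**
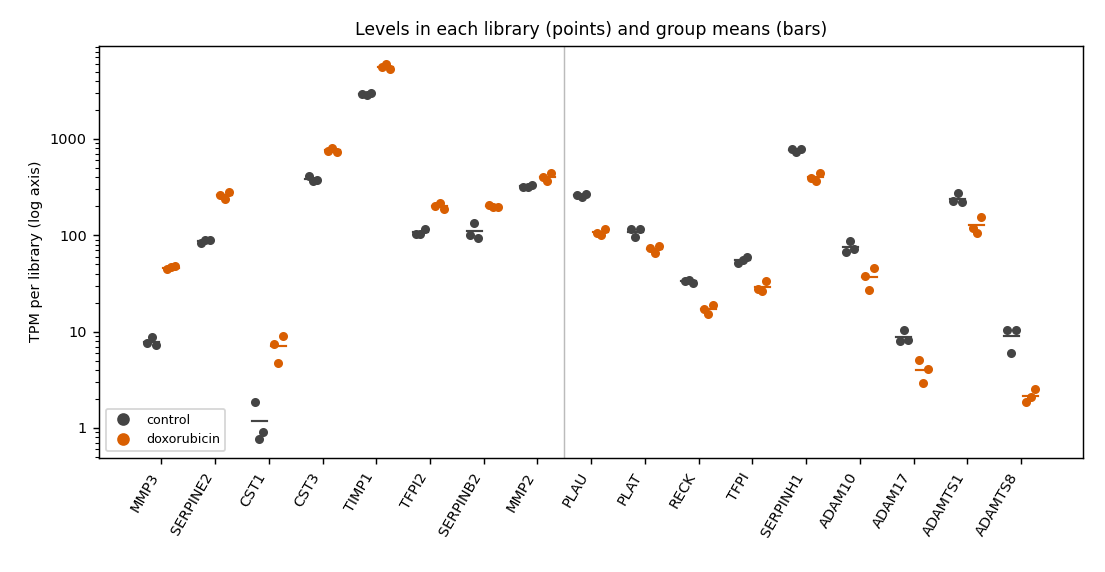
TPM (log axis) of 8 genes called higher (left of the grey line) and 9 genes called lower (right of it) in each control (dark) and doxorubicin (orange) library, with bars at the group means. For each of these genes the 3 libraries of one group lie apart from those of the other, and MMP3 shows the widest gap, from 7.28 to 8.74 TPM in control to 44.4 to 47.8 TPM in doxorubicin libraries.

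Plasminogen activation was represented by the 2 activators, and both fell. PLAU, the activator that acts at the cell surface on its receptor, had 263, 251 and 265 TPM in control libraries and 106, 100.4 and 117 TPM in doxorubicin libraries. Its libraries did not overlap, and its fall (log2 fold change -1.26 ± 0.07 SE, adjusted p = 1.81e-07) took it from rank 294 to rank 666 among listed genes. PLAT, better known for fibrinolysis in blood, had 117, 94.8 and 116 TPM in control and 72.9, 66.1 and 77.6 TPM in doxorubicin libraries (log2 fold change -0.59 ± 0.09 SE, adjusted p = 3.99e-04). The ratio of PLAU to PLAT was 2.39 ± 0.220 (SD, n = 3) in control and 1.49 ± 0.0370 in doxorubicin libraries, so the fall of PLAU was the steeper of the pair in these libraries. The urokinase receptor gene PLAUR is not among the 62 genes and was not analysed here.

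Serpins rose or fell by gene. SERPINE2 (protease nexin-1), which inhibits thrombin, urokinase and other serine proteases at the cell surface, had 82.9, 88.6 and 88.7 TPM in control libraries and 262, 238 and 278 TPM in doxorubicin libraries. The groups were far apart, at 86.7 ± 3.37 and 259 ± 20.1 TPM (SD, n = 3), a 2.99-fold difference (log2 fold change 1.57 ± 0.07 SE, adjusted p = 4.99e-08). The gene, ENSG00000135919, lies at chr2:223975112-224039319 on the minus strand (GRCh38) and moved from rank 785 to rank 303 among listed genes. In the control libraries SERPINE2 TPM was 0.316 to 0.354 of PLAU TPM, and in the doxorubicin libraries it was 2.37 to 2.48 times PLAU TPM. The order of the transcripts of this inhibitor and of 1 of its targets was therefore inverted in every doxorubicin library.

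SERPINB2 (plasminogen activator inhibitor 2), a further inhibitor of urokinase, had 102, 135 and 94.3 TPM in control libraries and 208, 195 and 197 TPM in doxorubicin libraries (log2 fold change 0.87 ± 0.12 SE, adjusted p = 1.79e-04). SERPINI1 (neuroserpin), an inhibitor of tissue-type plasminogen activator, was low, with 1.85, 2.78 and 2.23 TPM in control and 3.34, 5.99 and 4.34 TPM in doxorubicin libraries (log2 fold change 0.74 ± 0.18 SE, adjusted p = 0.00448). The 3 serpins tested that are known to act on plasminogen activators thus rose, while the 2 activators fell. The groups of SERPINB2 and of SERPINI1 did not overlap, although the control libraries of the former varied by more than those of SERPINE2.

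SERPINH1 does not inhibit proteases. It encodes HSP47, a chaperone of procollagen in the endoplasmic reticulum, and had 777, 730 and 794 TPM in control libraries and 393, 367 and 440 TPM in doxorubicin libraries (log2 fold change -0.94 ± 0.07 SE, adjusted p = 2.33e-06). Its main client genes among those listed fell too, with log2 fold changes of -0.55 for COL1A1, -0.38 for COL1A2 and -1.48 for COL3A1, although COL1A2 lost its call under median-ratio scaling (-0.15, adjusted p = 0.0773). The ratio of SERPINH1 to COL1A1 TPM was 0.272 ± 0.0122 (SD, n = 3) in control and 0.206 ± 0.00586 in doxorubicin libraries, so the chaperone fell by more than this collagen.

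SERPINB9, an intracellular inhibitor of granzyme B, had 2.01, 2.05 and 2.03 TPM in control and 0.850, 0.810 and 0.850 TPM in doxorubicin libraries (log2 fold change -0.72 ± 0.12 SE, adjusted p = 4.92e-04). SERPINB6, its neighbour 44.9 kb away on chromosome 6 and likewise mainly intracellular, had 134 ± 0.916 and 145 ± 3.77 TPM (SD, n = 3), without overlap, but was not called (log2 fold change 0.11 ± 0.06 SE, adjusted p = 0.0776). Under median-ratio scaling SERPINB6 would be called higher (log2 fold change 0.34, adjusted p = 0.00471). SERPINA9 and the plasmin inhibitor SERPINF2 were under 0.5 TPM in every library and were not tested. SERPINF2 was listed at 0 in the 3 control libraries.

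All 5 cystatins tested were called higher, against 22.7% of all genes tested, although CSTB and CST6 lost the call in some refits. Cystatin C (CST3), the main secreted inhibitor of cysteine cathepsins, had 408, 363 and 372 TPM in control libraries and 755, 799 and 735 TPM in doxorubicin libraries (log2 fold change 1.00 ± 0.06 SE, adjusted p = 4.39e-07). CST1 (cystatin SN), better known from saliva, had 1.85, 0.77 and 0.910 TPM in control and 7.52, 4.70 and 8.96 TPM in doxorubicin libraries (log2 fold change 1.88 ± 0.23 SE, adjusted p = 1.19e-04). CSTA (cystatin A), an intracellular inhibitor best known in epithelia, had 0.330, 0.880 and 0.340 TPM in control and 2.12, 2.28 and 1.06 TPM in doxorubicin libraries (log2 fold change 0.88 ± 0.21 SE, adjusted p = 0.00353). The high cystatin was thus tightly measured in both groups, and the low ones were spread over a wider range within each group.

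The abundant intracellular cystatin B (CSTB) had means of 463 ± 14.6 and 598 ± 26.4 TPM (SD, n = 3). Its log2 fold change of 0.37 dropped under the fold threshold with quantile normalization (0.13). CST6 had means of 5.29 ± 0.338 and 7.36 ± 1.42 TPM, and its call (adjusted p = 0.0267) was lost without control replicate 2 or 3 or doxorubicin replicate 1 or 2 (adjusted p = 0.0613 to 0.090). CST4, listed at 0.220, 0 and 0 TPM in control and at 0.600, 0.75 and 0.570 TPM in doxorubicin libraries, was not tested. CST1, CST3 and CST4 lie close together on chromosome 20, with gaps of 47.2 kb between CST3 and CST4 and 58.5 kb between CST4 and CST1. CST1 and CST4 are close paralogs, and reads may be split between them. Among cathepsin genes, the targets of cystatins, CTSB (log2 fold change 0.48) was called higher as well, and the ratio of CST3 to CTSB TPM was 0.556 ± 0.0317 in control and 0.803 ± 0.0628 in doxorubicin libraries.

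The Kunitz-type tissue factor pathway inhibitors went in opposite directions. TFPI, the main inhibitor of the tissue factor and factor VIIa complex, had 51.7, 55.9 and 59.2 TPM in control libraries and 27.7, 26.6 and 33.4 TPM in doxorubicin libraries (log2 fold change -0.91 ± 0.10 SE, adjusted p = 3.41e-05). TFPI2, which inhibits plasmin and other serine proteases in the matrix, had 104, 104 and 115 TPM in control and 201, 215 and 186 TPM in doxorubicin libraries (log2 fold change 0.89 ± 0.07 SE, adjusted p = 4.00e-06). The ratio of TFPI2 to TFPI was 1.86 to 2.01 in control and 5.58 to 8.07 in doxorubicin libraries. Tissue factor itself (F3), the cell-surface trigger of coagulation, fell from 355 ± 22.5 to 218 ± 27.4 TPM (SD, n = 3, log2 fold change -0.71, adjusted p = 9.09e-05).

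Among the remaining inhibitors, the broad protease trap alpha-2-macroglobulin (A2M) had 5.39, 4.70 and 5.82 TPM in control and 3.73, 3.61 and 3.71 TPM in doxorubicin libraries (log2 fold change -0.42 ± 0.12 SE, adjusted p = 0.00878). This call was lost under quantile normalization (log2 fold change -0.04) and median-ratio scaling (-0.24). SPINT2, a membrane-bound Kunitz inhibitor, overlapped between groups, with 2.52, 0.97 and 0.740 TPM in control and 2.45, 1.77 and 1.43 TPM in doxorubicin libraries, and was not called (adjusted p = 0.260). Control replicate 1 stood apart in this gene, and without it SPINT2 would be called higher (log2 fold change 0.62, adjusted p = 0.0138). SPINT1 and PI16 were too low to be tested.

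Of the 8 ADAM genes tested, 6 were called lower (75.0%, against 48.5% of all genes tested) and 2 higher (25.0%, against 22.7%). The ADAMs are membrane-anchored enzymes that shed the outer parts of other membrane proteins. ADAM10, which sheds Notch receptors and many other proteins, had 67.0, 87.3 and 71.8 TPM in control libraries and 37.8, 27.3 and 45.5 TPM in doxorubicin libraries (log2 fold change -1.03 ± 0.17 SE, adjusted p = 7.64e-04). ADAM17 (TACE), the sheddase of TNF and of several EGF receptor ligands, had 8.03, 10.4 and 8.12 TPM in control and 5.04, 2.95 and 4.07 TPM in doxorubicin libraries (log2 fold change -0.99 ± 0.17 SE, adjusted p = 5.93e-04). ADAM9, the most abundant ADAM transcript, had 208, 237 and 207 TPM in control and 114, 94.6 and 134 TPM in doxorubicin libraries (log2 fold change -0.94 ± 0.11 SE, adjusted p = 1.00e-04). The 3 falls were of like size, and the ratio of ADAM10 to ADAM17 TPM was 8.52 ± 0.284 (SD, n = 3) in control and 9.31 ± 1.84 in doxorubicin libraries.

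Control replicate 2 had the highest and doxorubicin replicate 2 the lowest value for each of these 3 genes, and for ADAMTS1 as well. ADAM33 (25.1 ± 3.10 to 14.4 ± 2.15 TPM), ADAM19 (16.2 ± 1.89 to 11.4 ± 0.584 TPM) and the low ADAM12 (1.41 ± 0.125 to 0.827 ± 0.295 TPM) were also called lower. ADAM19 fell below the fold threshold under both scalings (log2 fold changes -0.23 and -0.26), and the call of ADAM12 was lost under both (adjusted p = 0.249 and 0.0779) and without control replicate 1 or 2 or doxorubicin replicate 2 or 3 (adjusted p = 0.0503 to 0.108). ADAM28 was listed at 0 in the 3 control libraries and at 0.090, 0.010 and 0.20 TPM in doxorubicin libraries.

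The 2 ADAM genes called higher were ADAM15 and ADAM8. ADAM15, which also binds integrins, had 48.0, 49.5 and 47.4 TPM in control and 58.3, 64.4 and 60.6 TPM in doxorubicin libraries (log2 fold change 0.33 ± 0.07 SE, adjusted p = 0.00192). ADAM8, best known from leukocytes, had 0.93, 0.70 and 1.47 TPM in control and 1.83, 1.66 and 2.20 TPM in doxorubicin libraries (log2 fold change 0.52 ± 0.16 SE, adjusted p = 0.0134), and its call was lost without control replicate 2 (adjusted p = 0.0511). Neither group pair overlapped. The summed TPM of the ADAM genes was 376 to 426 in control and 217 to 275 in doxorubicin libraries.

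Of the 10 ADAMTS genes tested, 6 were called lower and 3 higher, shares near the 48.5% and 22.7% of all genes tested. These secreted enzymes process procollagens and proteoglycans. ADAMTS1, a protease of versican and aggrecan, had by far the highest level, with 224, 275 and 220 TPM in control libraries and 119, 106 and 155 TPM in doxorubicin libraries (log2 fold change -0.93 ± 0.14 SE, adjusted p = 4.31e-04). ADAMTS8 had the largest fitted fall of the 50 genes, from 10.4, 6.05 and 10.4 TPM in control to 1.84, 2.10 and 2.54 TPM in doxorubicin libraries (log2 fold change -1.62 ± 0.19 SE, adjusted p = 6.65e-05). ADAMTS6 had 2.98, 2.32 and 2.21 TPM in control and 1.49, 1.04 and 1.40 TPM in doxorubicin libraries (log2 fold change -0.60 ± 0.14 SE, adjusted p = 0.00367). In none of these genes did the groups overlap, although control replicate 2 was low for ADAMTS8, whose log2 fold change was -1.51 to -1.85 over the fits that left out 1 library.

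The aggrecanase ADAMTS5 (1.94 ± 0.170 to 1.29 ± 0.188 TPM), ADAMTS15 (1.42 ± 0.199 to 0.803 ± 0.104 TPM) and the procollagen N-proteinase ADAMTS2 (43.9 ± 2.18 to 35.0 ± 3.51 TPM) were called lower by small margins. ADAMTS2 (log2 fold change -0.10) and ADAMTS5 (-0.22, adjusted p = 0.0916) lost their calls under median-ratio scaling, and ADAMTS5 and ADAMTS15 lost theirs under quantile normalization (adjusted p = 0.517 and 0.146). ADAMTS5 also lost it without control replicate 2 or 3 or doxorubicin replicate 1 or 2 (adjusted p = 0.0625 to 0.0884), and ADAMTS15 without control replicate 1 or doxorubicin replicate 1 (0.0524 and 0.0504). Pairs of ADAMTS genes called lower lie next to each other in the genome. ADAMTS8 and ADAMTS15 are 19981 bases apart on chromosome 11, and ADAMTS1 and ADAMTS5 are 72.5 kb apart on chromosome 21.

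ADAMTS13, the protease of von Willebrand factor, was low, with 0.650, 0.480 and 0.80 TPM in control and 1.45, 1.64 and 1.19 TPM in doxorubicin libraries (log2 fold change 0.56 ± 0.14 SE, adjusted p = 0.00471). ADAMTS7, which degrades cartilage oligomeric matrix protein, had 7.35, 4.87 and 5.71 TPM in control and 8.11, 7.95 and 8.70 TPM in doxorubicin libraries (log2 fold change 0.42 ± 0.14 SE, adjusted p = 0.0197), and lost its call without control replicate 2 or 3 (adjusted p = 0.0812 and 0.0516). ADAMTSL4, a fibrillin-binding relative without a protease domain, had 5.54, 5.44 and 4.42 TPM in control and 7.26, 6.89 and 6.52 TPM in doxorubicin libraries (log2 fold change 0.37 ± 0.12 SE, adjusted p = 0.0192). ADAMTSL4 lost its call without control replicate 3 or doxorubicin replicate 1 (adjusted p = 0.0834 and 0.0702). ADAMTS12 overlapped between groups at 14.2 ± 1.14 and 14.8 ± 0.534 TPM and was not called (adjusted p = 0.611), but would be called higher under quantile normalization (log2 fold change 0.27, adjusted p = 0.0274) and median-ratio scaling (0.27, adjusted p = 0.0279). ADAMTS9 and ADAMTS14 did not overlap, with lower values after doxorubicin, and ADAMTS19 did. All 3 were under a mean of 1 TPM and were not tested.

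**Figure D5:**
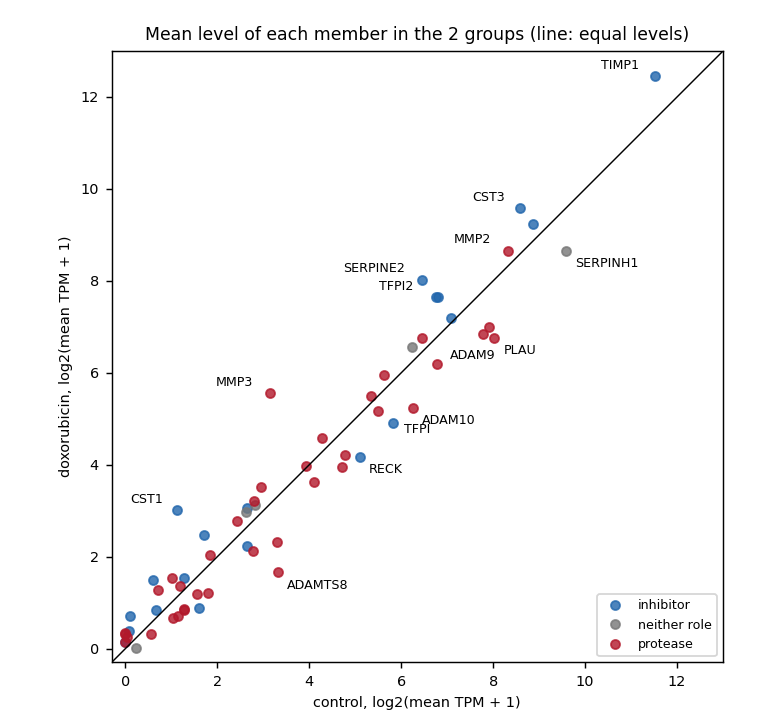
Mean TPM of each of the 62 genes in the control (horizontal axis) and doxorubicin (vertical axis) group, both as log2(mean TPM + 1), in red for proteases, blue for inhibitors and grey for genes in neither role, with a line at equal levels. TIMP1 is the highest gene in both groups, MMP3, CST1 and SERPINE2 lie farthest above the line, and ADAMTS8, PLAU and ADAM10 lie well below it.

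Astacin and pappalysin proteases act on growth factor and procollagen precursors. PAPPA, which frees insulin-like growth factors by cleaving IGFBP4 and IGFBP5, had 4.45, 4.53 and 4.14 TPM in control libraries and 6.21, 5.22 and 6.17 TPM in doxorubicin libraries (log2 fold change 0.35 ± 0.12 SE, adjusted p = 0.0204). This call was lost without control replicate 1 or 3 or doxorubicin replicate 1 (adjusted p = 0.0512 to 0.0767). The substrates IGFBP4 and IGFBP5 split, with log2 fold changes of 0.38 (adjusted p = 2.11e-04) and -0.92 (adjusted p = 0.00128). Among other IGFBP genes, IGFBP2 rose from 5.43 ± 1.43 to 45.8 ± 7.52 TPM (2.88, adjusted p = 1.09e-06) and IGFBP3 fell (-0.70, adjusted p = 2.70e-05). The PAPPA inhibitor STC2 fell (-0.67, adjusted p = 1.89e-05). STC1, a related inhibitor, overlapped between groups and was not called (0.27, adjusted p = 0.118), but would be called higher under quantile normalization (0.50, adjusted p = 0.012) and median-ratio scaling (0.48, adjusted p = 0.00826). BMP1, the procollagen C-proteinase, had 39.5 ± 1.43 and 44.3 ± 3.16 TPM (SD, n = 3) and was not called (adjusted p = 0.0855), except under median-ratio scaling (log2 fold change 0.38, adjusted p = 0.00215). TLL2, a BMP1 relative, was under 0.25 TPM in every library.

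The other serine proteases were mixed. HTRA1, a secreted protease of matrix proteins, had 86.1, 83.7 and 88.6 TPM in control and 109.9, 106 and 107 TPM in doxorubicin libraries (log2 fold change 0.32 ± 0.06 SE, adjusted p = 9.31e-04). HTRA2, its mitochondrial relative, had 18.3, 17.5 and 19.1 TPM in control and 24.3, 21.8 and 22.5 TPM in doxorubicin libraries (log2 fold change 0.31 ± 0.09 SE, adjusted p = 0.0108), and lost its call without doxorubicin replicate 1 (adjusted p = 0.0568). PRSS3 (mesotrypsin), one of several trypsinogen genes of like sequence whose reads may be split, had 7.16, 6.07 and 7.11 TPM in control and 9.06, 13.5 and 8.73 TPM in doxorubicin libraries (log2 fold change 0.53 ± 0.16 SE, adjusted p = 0.0116). PRSS3 was highest in doxorubicin replicate 2, and its log2 fold change without that library was 0.35.

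DPP4, a dipeptidyl peptidase of the cell surface that also marks fibroblast subsets, had 26.8, 25.2 and 27.7 TPM in control libraries and 17.0, 16.7 and 19.3 TPM in doxorubicin libraries (log2 fold change -0.56 ± 0.09 SE, adjusted p = 5.16e-04). PRSS35, a secreted relative of serine proteases that lacks the catalytic serine, had 5.34, 6.37 and 5.84 TPM in control and 3.30, 2.87 and 3.86 TPM in doxorubicin libraries (log2 fold change -0.66 ± 0.13 SE, adjusted p = 0.00137). Both fell without overlap. PRSS50 was listed at 0 in the 3 control libraries and at 0.14, 0.340 and 0.260 TPM in doxorubicin libraries. The proprotein convertase PCSK4 ranged from 0.320 to 2.47 TPM among control libraries and from 1.35 to 1.96 TPM among doxorubicin libraries, and was not called (adjusted p = 0.423). PCSK4 would be called higher without control replicate 3 (log2 fold change 0.62, adjusted p = 0.0251), and its log2 fold change was -0.0815 without control replicate 2.

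Counting all 62 genes with no filter, the libraries of the groups did not overlap for 31 genes with doxorubicin higher and 24 with doxorubicin lower, and overlapped for 7. Over all listed genes the share without overlap was 80.4% (34.1% with doxorubicin higher and 46.3% lower). Of the 12 genes not tested, 7 had higher doxorubicin libraries throughout, 3 had lower ones and 2 overlapped. With 3 libraries against 3, an exact two-sided permutation test on 1 gene has 0.1 as its smallest possible p. With a fold threshold of 2 on the log2(TPM + 1) scale, 4 genes were called higher (MMP3, CST1, SERPINE2 and CST3) and 3 lower (ADAMTS8, PLAU and ADAM10), or 7 of 50, where 8.09% of all genes tested passed it in either direction. That scale understates low genes, and with a pseudocount of 0.1 the log2 fold changes of CSTA (1.68), ADAMTS13 (1.05), ADAM17 (-1.14) and SERPINB9 (-1.19) were past this threshold too.

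The genes called higher were shorter in the genome than those called lower, as they were among all genes tested. The median genomic span (from GENCODE release 29) was 15.6 kb for the 22 genes called higher and 48.6 kb for the 21 called lower, against 11.5 and 63.8 kb among all genes tested. Of the 10 genes over 100 kb, 2 were called higher (MMP2 and PAPPA) and 7 lower. Of the 21 under 20 kb, 12 were higher and 6 lower. Among all genes tested, of any span, 22.7% were called higher and 48.5% lower. Across the 50 genes, which are not independent replicates, Spearman's rho between span and log2 fold change was -0.287, against -0.441 over all genes tested. The part of gene length in these changes was not tested.

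Sequences upstream of the start site are shown for 6 genes, of which 4 (TIMP1, SERPINE2, TFPI2 and SERPINB2) rose and 2 (PLAU and RECK) fell, so that the promoters of the inhibitors and of the activator discussed above can be set side by side. They are the 250 bases before a RefSeq transcript start (GRCh38.p14), written 5′ to 3′ on the strand of the gene. For SERPINE2 and PLAU, which have several windows in the table, 1 is shown. Capitals mark every match, on either strand, to AP-1 (TGANTCA), the TATA box (TATAAA), the GC box (GGGCGG) and the CCAAT box (CCAAT). The windows lie at chrX:47582186-47582435 on the plus strand for TIMP1, chr2:224031479-224031728 on the minus strand for SERPINE2, chr7:93890754-93891003 on the minus strand for TFPI2, chr18:63887455-63887704 on the plus strand for SERPINB2, chr10:73910882-73911131 on the plus strand for PLAU and chr9:36036663-36036912 on the plus strand for RECK.
TIMP1: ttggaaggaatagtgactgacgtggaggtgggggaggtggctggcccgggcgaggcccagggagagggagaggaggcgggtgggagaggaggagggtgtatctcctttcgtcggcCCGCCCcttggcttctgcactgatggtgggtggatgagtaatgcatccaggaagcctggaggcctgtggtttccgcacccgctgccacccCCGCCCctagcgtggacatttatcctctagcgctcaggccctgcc
SERPINE2: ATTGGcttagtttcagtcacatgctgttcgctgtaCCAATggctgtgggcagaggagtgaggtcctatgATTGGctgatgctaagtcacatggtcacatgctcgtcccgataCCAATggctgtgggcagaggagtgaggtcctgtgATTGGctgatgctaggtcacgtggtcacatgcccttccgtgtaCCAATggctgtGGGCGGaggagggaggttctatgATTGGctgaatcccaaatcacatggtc
TFPI2: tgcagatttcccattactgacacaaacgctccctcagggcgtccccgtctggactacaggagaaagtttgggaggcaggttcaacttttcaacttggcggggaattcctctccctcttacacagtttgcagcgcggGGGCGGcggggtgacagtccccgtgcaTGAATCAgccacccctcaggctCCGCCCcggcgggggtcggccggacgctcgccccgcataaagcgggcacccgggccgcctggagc
SERPINB2: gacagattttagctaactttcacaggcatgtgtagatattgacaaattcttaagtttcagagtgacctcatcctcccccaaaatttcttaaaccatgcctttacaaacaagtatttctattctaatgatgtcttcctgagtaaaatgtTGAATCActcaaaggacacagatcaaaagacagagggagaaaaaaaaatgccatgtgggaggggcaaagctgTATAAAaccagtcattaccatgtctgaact
PLAU: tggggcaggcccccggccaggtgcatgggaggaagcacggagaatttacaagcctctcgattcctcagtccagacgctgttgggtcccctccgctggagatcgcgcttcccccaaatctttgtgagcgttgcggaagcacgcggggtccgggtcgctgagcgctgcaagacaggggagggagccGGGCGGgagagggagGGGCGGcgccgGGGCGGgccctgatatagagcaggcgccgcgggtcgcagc
RECK: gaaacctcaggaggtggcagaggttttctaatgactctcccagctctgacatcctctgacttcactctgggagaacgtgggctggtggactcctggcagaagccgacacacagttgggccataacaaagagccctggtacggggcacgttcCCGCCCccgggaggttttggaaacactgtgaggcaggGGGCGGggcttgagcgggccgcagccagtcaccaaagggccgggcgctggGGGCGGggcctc

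SERPINB2 held an AP-1 match starting 102 bases before its start site and a TATA box at 30 bases before it, and had no GC box. TFPI2 held an AP-1 match at 87 bases before its start between 2 GC boxes. The SERPINE2 window shown held 7 CCAAT matches and 1 GC box, and the other SERPINE2 window in the table, nearer the 5′ end of the gene, held 0 and 2. TIMP1 held 2 GC boxes and RECK 3, while PLAU held 3 in the window shown and, in its other window, 0 GC boxes and 1 CCAAT match. Neither PLAU nor RECK held an AP-1 match in the window shown. No match says only that these letters are not in the window.

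Over the family, 41 of the 62 genes had 49 windows in the RefSeq table. MMP3, CST1, MMP2, ADAM9, ADAMTS1 and ADAMTS8 were among the genes with no window, so their promoters were not searched. AP-1 matches were in 8.16% of the 49 windows, against 6.57% of the 35116 windows of all genes. They were in 3 of 18 windows of genes called higher (PRSS3, SERPINB2 and TFPI2), in 0 of 15 windows of genes called lower, and in that of ADAMTS12, which was not called. Each of these matches in the family read TGAATCA, and none read TGACTCA or TGAGTCA. GC boxes were in 69.4% of the windows of the family and 42.6% of all windows, CCAAT boxes in 18.4% and 32.0%, and TATA boxes in 8.16% and 10.7%. The windows of the family were richer in G and C, with a median of 69.2% against 58.0% in all windows, and GC box matches move with that content. GC content hardly differed by direction, at a median of 67.0% for genes called higher and 68.8% for genes called lower.

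AP-1 factors and TGF-beta signalling are known to act on promoters of MMP and serpin genes. Of 20 such genes on a list, 14 were in the table and tested, of which 2 were called higher (14.3%, against 22.7% of all genes tested) and 11 lower (78.6%, against 48.5%), with a median log2 fold change of -0.47. The AP-1 subunits listed fell, with log2 fold changes of -1.17 for FOSB, -0.94 for FOS and -0.49 for FOSL1. TGFB1 (log2 fold change 0.33, adjusted p = 0.00235) and the inhibitory SMAD7 (0.60, adjusted p = 0.00613) rose, while the receptor TGFBR2 (-0.44) and the signal transducers SMAD3 (-0.37) and SMAD4 (-0.76) fell. Under median-ratio scaling TGFBR2 (-0.21) and FOSL1 (-0.26) were below the fold threshold, and SMAD3 (-0.14, adjusted p = 0.0751) lost its call.

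Other genes of proteolysis at the cell surface were taken from a list of 43 receptors, cofactors, peptidases and substrates. Of these, 30 were in the table and 28 were tested, of which 8 were called higher (28.6%, against 22.7% of all genes tested) and 17 lower (60.7%, against 48.5%), with a median log2 fold change of -0.59. The substrates collagen I, III and IV were lower, with log2 fold changes of -0.38 to -1.48 for COL1A1, COL1A2, COL3A1, COL4A1 and COL4A2, while fibronectin (FN1), a substrate of MMP3 and plasmin, was higher (0.45, adjusted p = 5.80e-04). FN1 was below the fold threshold under quantile normalization (0.23), and COL1A2 lost its call under median-ratio scaling (-0.15, adjusted p = 0.0773). The surface peptidases aminopeptidase N (ANPEP, -0.75), ECE1 (-0.61) and neprilysin (MME, from 5.27 ± 1.29 to 2.15 ± 0.797 TPM) fell, as DPP4 did. Basigin (BSG, 0.47), known as an inducer of MMPs, and the lysosomal cathepsins CTSB (0.48) and CTSD (0.42) rose.

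Cell type markers moved with the groups. The 5 of 11 fibroblast markers in the table were all called lower, against 48.5% of all genes tested. Their summed TPM was 5842 to 6195 in control and 3930 to 4616 in doxorubicin libraries. Of 6 epithelial markers 4 were in the table, with a summed TPM of 139.7 to 155.8 and 286 to 310.9, most of it KRT19 (log2 fold change 1.19). KRT18 was called higher too (0.60), CLDN4 was called lower (-0.61, adjusted p = 0.00939), and KRT8 overlapped between groups and was not called (0.19, adjusted p = 0.302). Of 5 leukocyte markers, CD68, a lysosomal protein that fibroblasts also make, rose (0.94), and PTPRC was near 0, with means of 0.070 ± 0.0557 and 0.277 ± 0.297 TPM (SD, n = 3). None of the 4 endothelial markers was in the table, and markers outside it were not analysed. All libraries came from 1 fibroblast line, WI-38, so these markers are not a count of cell types. In bulk RNA, fewer cells that express a gene and less of its RNA per cell cannot be told apart. The part of these shifts in the changes above was not tested.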

How the data were processed

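RNA of WI-38 cells was sequenced by the authors from both ends of each fragment in 9 libraries, of which the 3 control and 3 doxorubicin libraries are used here. The authors' deposited table gives 1 value per gene and library in a unit it does not name, which was taken as TPM because the listed genes sum to 54.3 to 60.0% of the fixed total of a TPM library and the submitters' processing notes name RSEM and StringTie. If the values were FPKM, they would differ from TPM by a factor per library, as in the scaling alternatives. The notes also name CASAVA, HISAT2, DESeq2, edgeR and GRCm38, a mouse build, while the gene identifiers are human Ensembl ones, and their roles and versions are not given in the sources used here. Read depth cannot be recovered from TPM and is unknown for each library, so the replicates alone give the precision. The table also holds the authors' group means, fold changes, p-values and adjusted p-values, which were not used. All 6499 rows passed their thresholds.

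Of the 6499 genes, 5721 averaged 1 TPM or more across the 6 libraries and entered a limma model of log2(TPM + 1) with a mean per group and no covariates (limma 3.58.1 in R 4.3.3, trended and robust eBayes, Benjamini-Hochberg adjustment). The fit was tested on simulated data of the 5721 genes, in which 200 genes were changed, none of them low in control libraries. An adjusted p under 0.05 in the right direction, with no fold threshold, was reached by 90 of 100 genes changed by a log2 value of 1. It was reached by 50 of 100 changed by 0.5, and 7 unchanged genes had an adjusted p under 0.05. In the data 71.2% of the genes tested were called, so the simulated setting differs from them. Between libraries of a group Pearson's r over genes was 0.992 to 0.995, and between groups 0.935 to 0.958. Full statistics were given for MMP3, SERPINE2 and, per class, up to 3 genes called with the largest rise and 3 with the largest fall, and other genes by levels or counts. The genes, lists, roles and tests were chosen with earlier results of these data known. Gene positions (GRCh38) come from GENCODE release 29, where all 62 Ensembl identifiers were found. Alternatives were a pseudocount of 0.1, no filter or a mean of 5 TPM, 2 scalings, a replicate block, plain eBayes, other fold thresholds, and fits without each library. Tables were made with Python 3.11.15 (pandas 2.3.3, SciPy 1.17.1, NumPy 2.4.6).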

Additional observations from a re-analysis of the deposited data

How the results depend on the processing

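The 22 genes called higher and 21 called lower became 4 and 3 with a fold change threshold of 2. They became 21 and 20 with the replicate number as a block, where ADAMTS5 (adjusted p = 0.0565) and PAPPA (adjusted p = 0.0589) lost their calls. Libraries with the same number did not deviate together from their group means (r = -0.063, -0.19 and -0.23 over genes), no library correlated best with its own number, and the samples share only a number. In the fits without 1 library each the counts were 16 to 22 higher and 19 to 20 lower, and the median log2 fold change of the genes tested was 0.13 to 0.25. Under median-ratio scaling this median was 0.38, where that of all genes tested moved from -0.28 to -0.08. No filter gave 26 higher and 23 lower among all 62 genes, and a filter at a mean of 5 TPM gave 17 and 14. Shares over all genes tested were not computed for that 5 TPM filter, the block or the fits without 1 library. Those counts therefore cannot be set beside the background. PCSK4, not called, changed sign without control replicate 2 (log2 fold change -0.0815 to 0.62 over the fits without 1 library), and the cause was not tested. Of the 43 genes called, 29 were called in each of the 13 refits in which they were tested, 14 lost the call in at least 1, and 10 of these in a fit without 1 library. With 3 libraries a group and no read depth, changes near the fold threshold in genes of a few TPM are the least certain.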
